A study of Mus musculus with 2 samples.

Results

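Laminins and other core genes of the basement membrane were examined in skeletal muscle of newborn mice: 10 genes of the 43346 genes in the deposited tables. They are the laminin chain genes Lama2, Lama4, Lama5, Lamb1, Lamb2 and Lamc1, the nidogen genes Nid1 and Nid2, the perlecan gene Hspg2 and the agrin gene Agrn. The genes were taken by symbol, matched to the deposited rows by gene identifier without its version, and all 10 had a row in both libraries. The mice were B6NCrl, an inbred C57BL/6 strain, at postnatal day 0. There were 2 libraries of 1 group, called biological replicates 1 and 2 by the labels. Each was made by SmartSeq, a method that copies whole transcripts into cDNA and amplifies them, from 13 pg of total RNA above a size of 200, an amount the labels equate with 1 cell. No cell was isolated: the RNA was purified with a mirVana kit from an organ portion of 1 pup, the pup's sex was not collected, and spike-in RNAs were added. The libraries have separate tissue records and the same donor entry, so the spread between them may be partly technical, and with no second group the design holds no comparison between conditions.

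The basement membrane is a sheet of extracellular matrix that wraps each muscle fibre and also lies under endothelium and around nerve and fat. Laminins, each a trimer of an alpha, a beta and a gamma chain, assemble into a network on the cell surface, where the alpha chain binds dystroglycan and integrins. Nidogens bind laminin and collagen IV, and perlecan and agrin are large heparan sulphate proteoglycans of the same sheet. Laminin alpha 2 is the main alpha chain around mature muscle fibres, and its loss causes congenital muscular dystrophy. Agrin made by motor neurons, with inserts that the forms made by other cells lack, drives clustering of acetylcholine receptors at the neuromuscular junction.

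Levels are in TPM, a gene's share of all transcripts after adjustment for transcript length, with the spread given as the SD over n = 2 libraries. Replicate 1 held 32103374 estimated reads and replicate 2 held 38977618. A gene was called detected at 1 TPM or more with at least 5 reads. By that rule 9 of the 10 genes were detected in replicate 1, where 14.6% of all genes were, and 9 of 10 in replicate 2, where 16.0% of all genes were. The same 9, all but Lama5, were detected in both libraries, against 18.2% of the 21474 protein coding genes and 21.2% of the 3194 genes with a coding transcript of at least 4884 bases, the shortest such length among the 10. These 9 genes rested on 681 to 26614 reads in replicate 1 and on 1686 to 10682 in replicate 2. Their libraries hold no molecular identifiers, so reads are not separate molecules, and every interval below covers counting error alone. The 10 genes together made up 534 TPM in replicate 1 and 300.1 in replicate 2, or 417 ± 166 TPM. They held 0.187% of the gene reads of replicate 1 and 0.132% of those of replicate 2. The median level of all 10, Lama5 included, was 46.0 TPM in replicate 1 and 27.1 in replicate 2. Over the 9 detected genes alone the median was the level of Nid2, 50.4 TPM in replicate 1 and 30.4 in replicate 2. For all detected genes of a library the median was 36.6 TPM in replicate 1 and 29.5 in replicate 2.

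The tables also split each gene's reads over its annotated transcripts, and the gene's TPM depends on that split, since a read counts for more on a short transcript than on a long one. A fixed-length level was therefore computed beside each deposited TPM, from the same reads and the length of the gene's longest coding transcript. It treats every read as coming from that transcript, so it is lower than TPM where reads were assigned to shorter transcripts. This alternative was chosen after the transcript tables were seen. Agrn and Hspg2 show what separates the transcripts. The following sequences, read from GENCODE M21 on GRCm38, are stretches of transcript around the pieces by which they differ. Capitals mark the piece and lower case the 15 bases on each side of it, all from 5′ to 3′ of the transcript. Agrn lies on the reverse strand of chromosome 4, where Agrn-203, its longest coding transcript, holds 3 short exons that Agrn-202 lacks. They are the insert exons known as y, the one of 12 bases or 4 codons, and z, those of 24 bases (8 codons) and 33 bases (11 codons).
Agrn-203, y exon of 12 bases, chr4:156169546-156169557: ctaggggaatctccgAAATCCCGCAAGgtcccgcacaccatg
Agrn-203, z exon of 24 bases, chr4:156168546-156168569: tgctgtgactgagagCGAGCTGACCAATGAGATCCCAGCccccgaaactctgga
Agrn-203, z exon of 33 bases, chr4:156167777-156167809: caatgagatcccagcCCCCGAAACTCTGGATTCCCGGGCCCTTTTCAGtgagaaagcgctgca
The z exons are the neuronal inserts. Of the Agrn transcripts in the tables, the z exon of 24 bases is also in Agrn-205 and Agrn-207 and the other 2 exons also in Agrn-207. Agrn-205, which took most Agrn reads, is annotated as a retained-intron transcript, and 1989 of its 2071 bases lie in exons of Agrn-203. The remaining 82 bases are an intron that Agrn-205 keeps.
Agrn-205, retained intron of 82 bases, chr4:156168821-156168902: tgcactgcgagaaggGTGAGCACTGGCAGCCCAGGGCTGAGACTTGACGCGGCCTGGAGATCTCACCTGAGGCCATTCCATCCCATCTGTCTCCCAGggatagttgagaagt
Hspg2 lies on the forward strand of the same chromosome. Its coding transcripts Hspg2-203 and Hspg2-201 have 14176 and 14187 bases, share 14146 of them and differ in short pieces such as these.
Hspg2-203, piece of 18 bases absent from Hspg2-201, chr4:137540195-137540212: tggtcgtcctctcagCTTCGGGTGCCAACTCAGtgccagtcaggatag
Hspg2-203, piece of 12 bases absent from Hspg2-201, chr4:137548491-137548502: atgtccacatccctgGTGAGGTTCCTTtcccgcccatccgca
Hspg2-201, piece of 6 bases absent from Hspg2-203, chr4:137549532-137549537: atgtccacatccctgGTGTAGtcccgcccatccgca
The last pair begin and end alike on both sides and differ only between the flanks.

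Lama2 and Lama4 were the alpha chains detected in this muscle RNA, neither above the other in both libraries, and Lama5 was not detected. Lama2, the chain of the muscle fibre basement membrane (chromosome 10, 26980036 to 27619758, reverse strand), had 50.7 TPM from 4421 reads in replicate 1 and 33.2 TPM from 7015 reads in replicate 2. Its mean was 42.0 ± 12.4 TPM. The library with more Lama2 reads thus had the lower Lama2 TPM. Lama4, a chain of vessel, nerve and developing muscle basement membranes (chromosome 10, 38965515 to 39110188, forward strand), had 33.4 TPM from 2744 reads in replicate 1 and 45.1 TPM from 7724 reads in replicate 2, with a mean of 39.3 ± 8.29 TPM. Within a library the log2 ratio of Lama2 to Lama4, taken on TPM + 1, was 0.59 in replicate 1 and -0.43 in replicate 2. The sign differed between the libraries, so neither chain stood above the other beyond the spread. Lama5, a chain common in epithelial and mature vessel basement membranes (chromosome 2, 180176373 to 180225859, reverse strand), had 67 reads in replicate 1, with a 95% Poisson interval of 51.9 to 85.1, and 0 in replicate 2. These reads came to 0.240 TPM in replicate 1, under the detection rule. A count of 0 in replicate 2, taken to allow 3 reads, allows up to 0.0085 TPM by counting error alone. All Lama5 reads thus came from replicate 1. Both other alpha chains were above Lama5 by more than the spread, with a log2 ratio of 5.24 ± 0.20 for Lama2 to Lama5 and of 5.16 ± 0.52 for Lama4 to Lama5. Because Lama5 was at 0 in replicate 2, the sizes and their SD are set by the pseudocount of 1, and with 0.1 they were 7.80 ± 0.82 and 7.72 ± 1.56. Lama1 and Lama3, the chains of early embryonic and of epidermal laminins, had 0 reads in both libraries.

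As a share of the summed TPM of all alpha chains, Lama2 took 60.1% in replicate 1 and 42.4% in replicate 2, or 51.3 ± 12.5%. Lama4 took 39.6% in replicate 1 and 57.6% in replicate 2, or 48.6 ± 12.7%, and Lama5 took 0.285% in replicate 1 and 0 in replicate 2. The leading alpha chain was therefore Lama2 in replicate 1 and Lama4 in replicate 2. At fixed length, Lama2 held 49.9% in replicate 1 and 36.2% in replicate 2, and Lama4 held 49.5% and 63.8%. The tissue is bulk, so fewer cells of a type and less RNA per cell cannot be told apart in any of these levels.

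**Figure D1:**
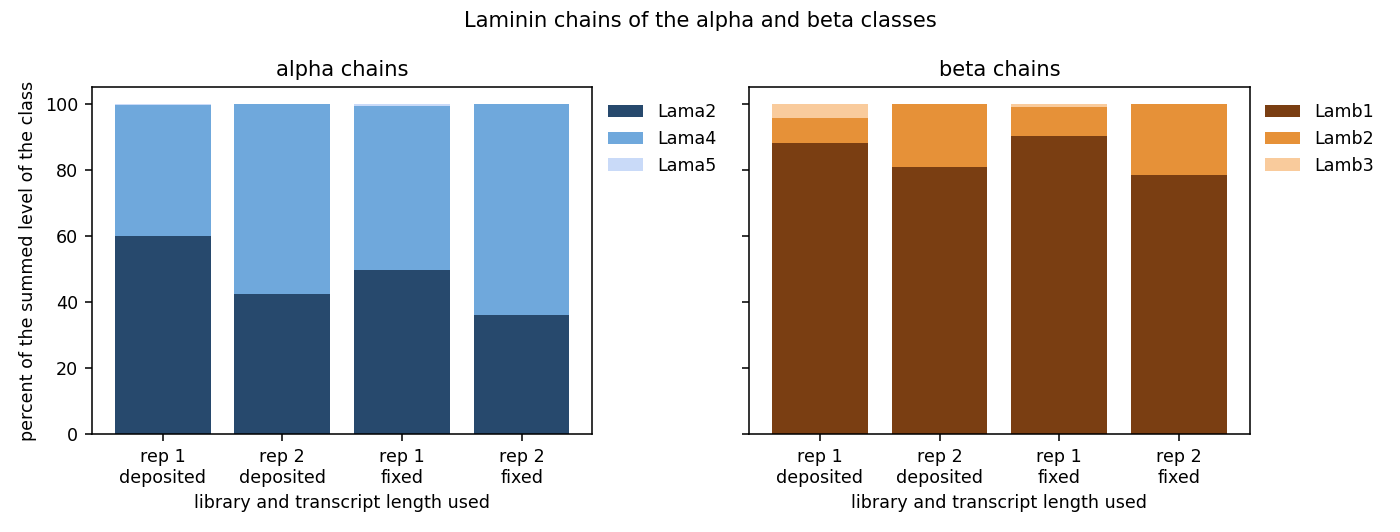
Stacked bars give each chain's percent of the summed level of its laminin class in replicates 1 and 2, alpha chains on the left and beta chains on the right, from deposited TPM (deposited) and from the length of the longest coding transcript (fixed). Lama2 held 60.1% and Lama4 39.6% of the alpha sum in replicate 1 and Lama2 42.4% and Lama4 57.6% in replicate 2 by deposited TPM, while Lamb1 held 78.4% to 90.1% of the beta sum over the 4 bars.

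Lamb1 was the main beta chain in both libraries. Lamb2, the beta chain of the neuromuscular synapse and of mature basement membranes (chromosome 9, 108479736 to 108490530, forward strand), had 5.28 TPM from 681 reads in replicate 1 and 17.9 TPM from 2862 reads in replicate 2, with a mean of 11.6 ± 8.95 TPM. Lamb1, the widely expressed beta chain (chromosome 12, 31265234 to 31329644, forward strand), had 63.1 TPM from 7155 reads in replicate 1 and 76.6 TPM from 10682 reads in replicate 2, with a mean of 69.8 ± 9.57 TPM. The ranges of the genes do not overlap. The log2 ratio of Lamb2 to Lamb1 was -3.35 in replicate 1 and -2.03 in replicate 2, or -2.69 ± 0.93, past the spread, and -2.46 ± 0.93 at fixed length. Lamb2 took 7.39% of the beta sum in replicate 1 and 19.0% in replicate 2, and Lamb1 took 88.2% and 81.0%. Lamb3, the beta chain of epidermal laminin, made up the remaining 4.38% in replicate 1 with 71 reads and 3.13 TPM, and had 0 reads in replicate 2. At fixed length Lamb3 had 0.610 TPM and 1.07% of the beta sum in replicate 1, under the detection limit.

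Lamc1 was the gamma chain detected in both libraries, and Lamc3 had 0 reads in both. Lamc1, the gamma chain of nearly all laminins outside epithelia (chromosome 1, 153218922 to 153332786, reverse strand), had 41.5 TPM from 1421 reads in replicate 1 and 21.8 TPM from 2045 reads in replicate 2, with a mean of 31.7 ± 13.9 TPM. As with Lama2, more reads went with a lower TPM. Alpha chains summed to 84.3 TPM in replicate 1 and 78.4 in replicate 2, beta chains to 71.5 and 94.5 TPM, and gamma chains to 41.5 and 21.8 TPM. Per library the alpha sum was 2.03 and 3.59 times the gamma sum, or 2.81 ± 1.10 times, and the beta sum was 1.72 and 4.33 times the gamma sum, or 3.03 ± 1.85 times. Alpha and beta sums stood at a ratio of 1.18 in replicate 1 and 0.829 in replicate 2. The gamma sum was thus the lowest of the 3 in both libraries. At fixed length the gap was wider, with the alpha sum 6.21 ± 1.81 and the beta sum 8.10 ± 1.01 times the gamma sum. That length scales Lamc1 reads to 7622 bases, though 1297 of 1421 in replicate 1 were assigned to a transcript of 1447.

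Nidogens differed from each other by less than the spread, because Nid1 varied between the libraries. Nid2 (chromosome 14, 19751265 to 19811787, forward strand) had 50.4 TPM from 5889 reads in replicate 1 and 30.4 TPM from 4539 reads in replicate 2, with a mean of 40.4 ± 14.2 TPM. Nid1 (chromosome 13, 13437551 to 13512269, forward strand) had 183 TPM from 26614 reads in replicate 1 and 35.6 TPM from 6610 reads in replicate 2, with a mean of 109 ± 105 TPM. Replicate 1 held the highest level of any of the 10 genes here, with Nid1 at place 714 of all genes by TPM, against place 2944 in replicate 2. The log2 ratio of Nid2 to Nid1 was -1.84 in replicate 1 and -0.22 in replicate 2, or -1.03 ± 1.15, the same sign in both but within the spread. Nid1 stood above Lamc1, its binding partner in laminin, by a log2 ratio of 2.12 in replicate 1 and 0.68 in replicate 2, also within the spread at 1.40 ± 1.02. Each nidogen has 1 transcript in the tables, so their levels do not depend on how reads were split between transcripts. Rtraf, a protein coding gene, overlaps Nid2 on the opposite strand and had 1904 reads in replicate 1 and 8814 in replicate 2. Whether strand was used in counting is not given in the sources used here, so reads of Nid2 and Rtraf may not be fully told apart. The other 7 genes that overlap one of the 10 had 0 reads.

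Perlecan and agrin were both detected, and by deposited TPM neither stood above the other in both libraries. Agrn (chromosome 4, 156165290 to 156197488, reverse strand) had 33.2 TPM from 1599 reads in replicate 1 and 23.9 TPM from 1686 reads in replicate 2, with a mean of 28.6 ± 6.58 TPM. Hspg2 (chromosome 4, 137468769 to 137570630, forward strand) had 73.1 TPM from 6203 reads in replicate 1 and 15.6 TPM from 6852 reads in replicate 2, with a mean of 44.3 ± 40.7 TPM. Hspg2 reads were nearly level between the libraries while its TPM differed 4.70-fold. By deposited TPM the log2 ratio of Agrn to Hspg2 was -1.11 in replicate 1 and 0.59 in replicate 2, and that of Hspg2 to Lamc1 was 0.80 and -0.46, so neither order held. Computed at fixed length, Agrn was below Hspg2 in both libraries, with log2 ratios of -0.91 and -0.96, or -0.93 ± 0.03. Hspg2 was then above Lamc1 in both, with log2 ratios of 1.12 and 0.77, or 0.95 ± 0.25. Both orders depend on the length chosen. All 1599 Agrn reads of replicate 1 were assigned to a transcript of 2071 bases but scaled to 7262. Of the Lamc1 reads there, 1297 were assigned to a transcript of 1447 bases but scaled to 7622. In all, 3 of the 8 pairs of genes compared exceeded the spread by deposited TPM and 5 of 8 at fixed length, where exceeding means the same sign in both libraries and a mean above 2 SD. Of the 3, the pairs of Lama2 and of Lama4 with Lama5 rest on the pseudocount, and of the 6 pairs with both values above 0 in both libraries, 1 exceeded the spread, Lamb2 to Lamb1. With n = 2 this is a description and not a test.

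**Figure D2:**
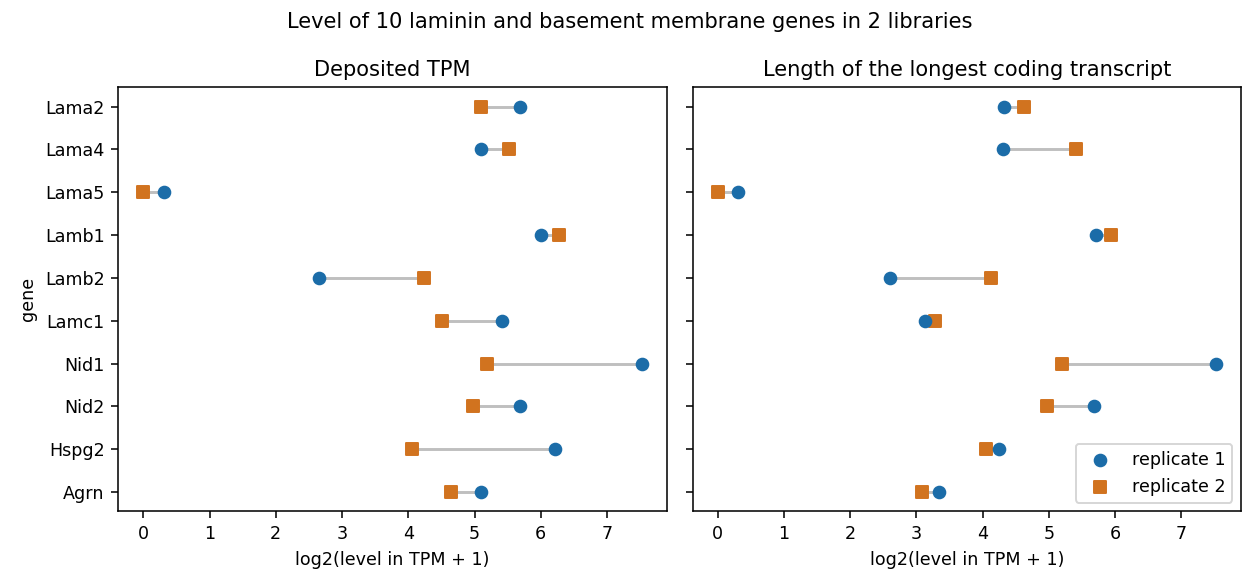
Points give the log2 level (TPM + 1) of each of the 10 genes in replicate 1 (blue circles) and replicate 2 (orange squares), joined by a grey line, from deposited TPM on the left and from the same reads at the length of the longest coding transcript on the right. The Hspg2 points lie at 73.1 and 15.6 TPM on the left and at 18.0 and 15.6 on the right, while the Nid1 points, at 183 and 35.6 TPM, are as far apart in both panels.

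By mean TPM the order of the genes was Nid1, Lamb1, Hspg2, Lama2, Nid2, Lama4, Lamc1, Agrn, Lamb2 and Lama5. Of the 9 steps between neighbours in that order, only the last, from Lamb2 to Lama5, exceeded the spread, with a log2 ratio of 3.29 ± 1.35 that also depends on the pseudocount. The other 8 steps did not, and in 6 of them the sign differed between the libraries. At fixed length the order was Nid1, Lamb1, Nid2, Lama4, Lama2, Hspg2, Lamb2, Agrn, Lamc1 and Lama5. There too only the last step, from Lamc1 to Lama5, exceeded the spread.

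Transcript by transcript, the 9 detected genes fell into those whose reads lay almost wholly on the longest coding transcript in both libraries and those whose reads did not. Nid1-201 and Nid2-201 took every read of their genes. Lamb2-201 (5629 bases) took 99.8% of Lamb2 reads in replicate 1 and 99.0% in replicate 2, and 95.4% and 91.5% of its TPM. For these 3 genes the split left the fixed-length level close to the deposited TPM.

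Among the other alpha and beta chains, transcripts much shorter than the longest held part of the TPM, for Lama2 and Lama4 most of all in replicate 1. Lama4-201 (6046 bases) took 94.3% of Lama4 reads in replicate 1 and 93.8% in replicate 2, but 53.4% and 86.4% of Lama4 TPM. The rest of the TPM in replicate 1, 46.6%, was on Lama4-207, a retained-intron transcript of 511 bases with 156 reads there and 0 in replicate 2. So 5.70% of the reads carried nearly as much TPM as all others. Lama2-201 (9614 bases) took 47.9% of Lama2 reads in replicate 1 and 88.3% in replicate 2. Lama2-207, a coding transcript of 4244 bases with 4046 of them in exons of Lama2-201, took 1806 reads and 35.2% of Lama2 TPM in replicate 1 and 0 reads in replicate 2. Lama2-206, a retained-intron transcript of 643 bases, took 202 reads and 30.0% of the TPM in replicate 1 and again 0 reads in replicate 2. Both of these Lama2 transcripts thus appeared in replicate 1 alone. Lamb1-201 (5784 bases) took 74.6% of Lamb1 reads in replicate 1 and 93.3% in replicate 2. Lamb1-205, a coding transcript of 5557 bases, took 14.9% of the reads in replicate 1 and 0.136% in replicate 2. A Lamb1 transcript of 2318 bases, whose identifier is not in GENCODE M21, held 21.2% and 11.0% of Lamb1 TPM. Lamb1-207, a retained-intron transcript of 424 bases, held 5.01% and 15.6%. The Lamb1 TPM was 1.22 times its fixed-length level in replicate 1 and 1.27 times in replicate 2.

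Lamc1, Hspg2 and Agrn had TPM furthest above their fixed-length levels in replicate 1. For Lamc1, the full-length Lamc1-201 (7622 bases) took 6.48% of the reads in replicate 1 and 85.4% in replicate 2. In replicate 1, 1297 of the reads were on Lamc1-204, a coding transcript of 1447 bases, which held 95.0% of Lamc1 TPM there and had 0 reads in replicate 2. In replicate 2, Lamc1-205, a nonsense-mediated decay transcript of 762 bases with 0 reads in replicate 1, held 66.0% of the TPM from 298 reads. Every base of Lamc1-204 and Lamc1-205 lies in exons of Lamc1-201. The Lamc1 TPM was 5.36 times its fixed-length level in replicate 1 and 2.51 times in replicate 2, and the fixed-length levels were 7.74 and 8.70, or 8.22 ± 0.678.

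Hspg2 reads lay on different transcripts in each library. Hspg2-203 took 5182 reads in replicate 1 and 0.01 in replicate 2. Hspg2-201, from which it differs in pieces such as those printed above, took 0 reads in replicate 1 and 6852 in replicate 2. The reads were thus on the full length in both libraries apart from 1021 in replicate 1 on Hspg2-202, a processed transcript of 820 bases, 730 of them in exons of Hspg2-201. Hspg2-202 held 79.4% of the Hspg2 TPM of replicate 1 and had 0 reads in replicate 2. With a fixed length, Hspg2 had 18.0 in replicate 1 and 15.6 in replicate 2, or 16.8 ± 1.75, a difference of 1.16-fold in place of 4.70-fold.

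For Agrn, the retained-intron transcript Agrn-205 took all 1599 reads in replicate 1 and 1394 reads, 82.7%, in replicate 2. The coding transcripts Agrn-202, without the y and z exons, and Agrn-203, with all 3, took 0 reads in replicate 1 and 156 and 136 reads in replicate 2. Agrn-206, another coding transcript, had 0 reads in both libraries. At most 8.07% of the Agrn reads of replicate 2 were therefore assigned to a full-length transcript with the neuronal inserts, and none in replicate 1. Agrn-205 holds the z exon of 24 bases, so its reads do not tell forms with and without the inserts apart, and reads over single exons were not analysed here. The Agrn TPM was 3.63 times its fixed-length level in replicate 1 and 3.18 times in replicate 2.

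**Figure D3:**
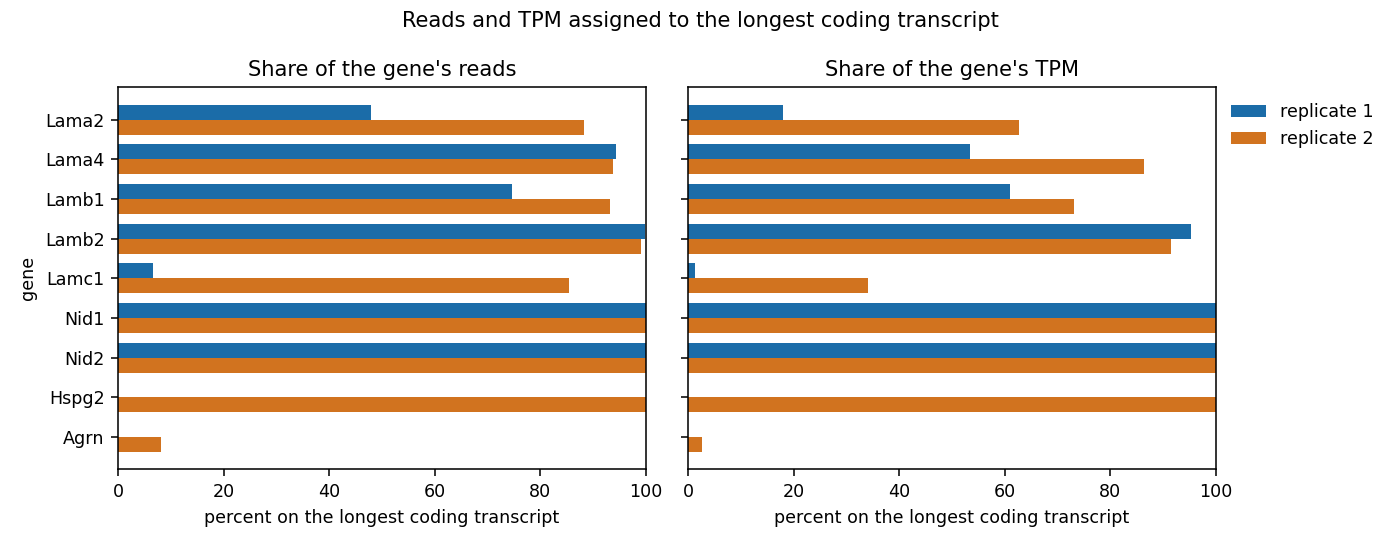
Bars give, for each of the 9 detected genes, the percent of its reads (left) and of its TPM (right) on the longest coding transcript, in replicate 1 (blue) and replicate 2 (orange), on axes starting at 0. Nid1 and Nid2 stand at 100% in all bars, Lamc1 at 6.48% and 85.4% of reads, and Hspg2 has no bar in replicate 1, where 83.5% of its reads were on Hspg2-203, which is nearly as long. Agrn has no bar in replicate 1 either, and stands at 8.07% of reads and 2.54% of TPM in replicate 2.

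Of the 7 detected genes with more than 1 transcript, the transcript with the highest TPM differed between the libraries for 3, namely Lama2, Lamc1 and Hspg2, beside 35.7% of 3354 genes of this kind in the files. That top transcript was not protein coding for 2 of 7 in replicate 1 (Hspg2-202 and Agrn-205) and for 2 of 7 in replicate 2 (Lamc1-205 and Agrn-205). The share of all genes with such a top transcript was not computed, so these counts cannot show whether the 7 genes are unusual. A differing top transcript was thus common in the files as a whole and is nothing particular to the basement membrane genes.

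Between the libraries, 3 of the 9 detected genes stood 2-fold or more apart after centring on the median gene, beside 47.6% of the 4872 genes with at least 10 reads in both and 45.3% of the 2648 among them in the same range of mean count. Nid1, at 2.29, and Hspg2, at 2.12 on the log2 scale, were higher in replicate 1, and Lamb2, at -1.63, was lower in replicate 1. The remaining ratios ran from -0.46 for Lama4 to 0.86 for Lamc1, and the median of the 9 was 0.55. Each is 1 library against 1, with no replicate check, and the share of the 9 was no higher than that of all genes. At fixed length, 3 of 9 again stood 2-fold apart, but they were Nid1 at 2.25, Lama4 at -1.18 and Lamb2 at -1.63, while Hspg2 was at 0.11. The median gene differed between the libraries by 0.04 and the median spike-in by 0.98 on the log2 scale. Against the spike-ins, every ratio is therefore lower by 0.94, and 5 of 9 genes passed 2-fold, 2 toward replicate 1 and 3 toward replicate 2. The direction of Lama2, Lamc1, Nid2 and Agrn turns with that choice, and that of Lama2 and Lamc1 also turns at fixed length. The shares of all genes given above hold for deposited TPM centred on the median gene. They were not computed for fixed length or for spike-in centring, so the counts under those settings have no background.

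**Figure D4:**
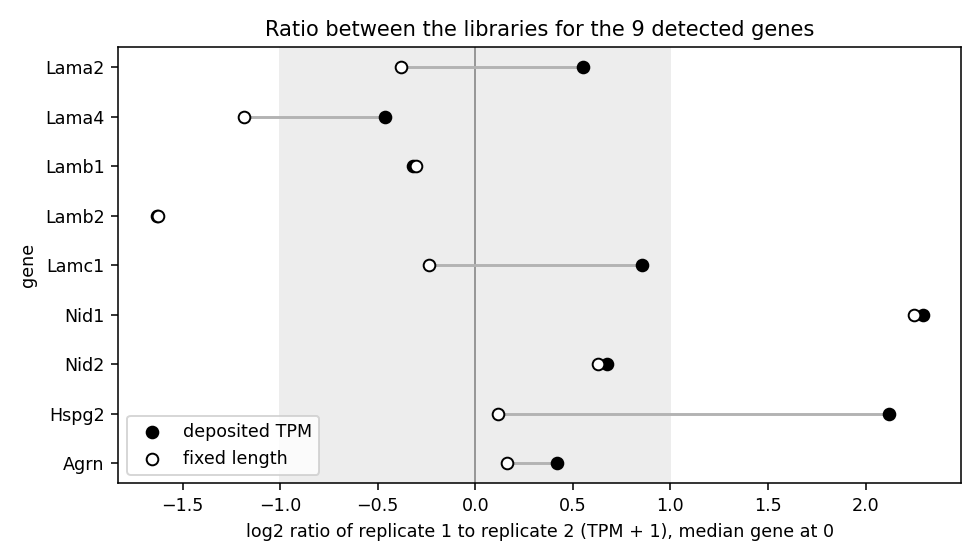
Points give the log2 ratio of replicate 1 to replicate 2 (TPM + 1) for the 9 detected genes with the median gene at 0, from deposited TPM (filled) and at fixed length (open), and the grey band spans less than 2-fold. Nid1 (2.29 and 2.25) and Lamb2 (-1.63 in both) keep their place, and Hspg2 stands at 2.12 for deposited TPM and at 0.11 for fixed length.

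The tissue label was checked against marker genes. All 6 muscle fibre markers were detected in both libraries, at a summed level of 132443 TPM in replicate 1 and 139553 in replicate 2, and 0 of 6 epidermal markers were, at summed levels of 0 and 0.02 TPM. All 6 fibroblast markers were detected in both (6372 and 4409 TPM), 4 of 6 endothelial markers (517 and 237 TPM), 3 of 6 mural markers (409 and 615 TPM), 4 of 6 satellite cell and myoblast markers (609.5 and 654 TPM) and 2 of 6 Schwann cell markers (51.2 and 25.4 TPM). The Schwann cell gene Sox10 had 0 reads in replicate 1 and 1 in replicate 2. Endothelial markers were higher in replicate 1, with a median centred log2 ratio of 1.60 over the 4 that could be used, and Nid1 was higher there too. Hspg2 was higher there by deposited TPM, but not 2-fold apart at fixed length, at 18.0 in replicate 1 and 15.6 in replicate 2. Single endothelial genes ran in both directions, with Pecam1 at 12711 reads in replicate 1 and 4 in replicate 2, and Kdr at 0 reads in replicate 1 and 677 in replicate 2. The fibroblast markers had a median of 0.13. The part of cell makeup in the differences of Nid1, Hspg2 and Lamb2 was not tested.

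Partners of these genes were read from 4 lists, whose detected shares stand beside the 18.2% of protein coding genes detected in both libraries. Receptors and linkers of the basement membrane were detected in both for 14 of 18 genes, with a median centred ratio of -0.21. Among the highest were Itgb1, the common beta subunit of laminin-binding integrins, at 162 TPM in replicate 1 and 183 in replicate 2, and the sarcoglycan genes Sgca and Sgcb, whose products brace dystroglycan in the membrane. In the same order of libraries, Sgca had 261 and 64.5 TPM and Sgcb had 122 and 71.1 TPM. Only Itgb4, the subunit of epithelial hemidesmosomes, had 0 reads in both. Dag1, the gene of dystroglycan and named here after its values were seen, had 30.4 TPM in replicate 1 and 108 in replicate 2, while Itga7, the alpha subunit of the muscle laminin integrin, had 32.5 TPM in replicate 1 and 0 reads in replicate 2. The agrin receptor genes Lrp4 and Musk, named in the same way, were detected in both libraries, Lrp4 at 4.78 and 4.06 TPM and Musk at 29.9 and 42.4 TPM.

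By deposited TPM, other basement membrane components were detected in both libraries for 9 of 24 genes, with a median centred ratio of 0.50. Of the 24, 8 had 0 reads in both. Sparc, a collagen-binding glycoprotein, was far above all 10 genes at 2987 TPM in replicate 1 and 2149 in replicate 2. Smoc2, a relative of Sparc, had 68.3 and 164 TPM, Fbln2, a fibulin, had 2.24 and 128 TPM, and Col4a2, a chain of collagen IV, had 29.3 and 63.9 TPM. Its partner chain Col4a1, named here after its values were seen, had 55.2 and 37.6 TPM, in the range of the laminin chains. At fixed length Fbln2 had 0.831 TPM in replicate 1, under the detection limit. The 4 minor collagen IV genes, Col4a3 to Col4a6, were among those with 0 reads. Of 16 genes for the sugar chains by which dystroglycan binds laminin, 2 were detected in both libraries, Dpm1 (178 and 72.6 TPM) and Dpm3 (31.5 and 66.7 TPM), and 7 had 0 reads in both. Of 12 matrix remodelling genes, 4 were detected in both. These were the gelatinase gene Mmp2 (53.8 and 131 TPM), the plasminogen activator gene Plat (98.0 and 39.6 TPM), and the protease inhibitor genes Timp3 (92.3 and 14.2 TPM) and Timp2 (4.12 and 28.4 TPM). In each list some genes had reads in only 1 library, and a count of 0 allows up to 3 reads by counting error alone.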

How the data were processed

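RNA of 2 libraries of newborn mouse skeletal muscle was analysed from a gene table and a transcript table per library. The deposited expected counts are estimated reads, not normalized and not always whole. Column names match RSEM output with posterior means, per the file headers. The deposited TPM values, and a posterior mean of TPM, were scaled by the authors to a fixed sum over all rows, spike-ins included. FPKM as deposited divides fragments by effective length and library total. The transcript tables hold the percent of the gene's TPM on each transcript as the authors deposited it. The authors assigned reads to mm10 with GENCODE M4, per text deposited beside the tables. No aligner, version or use of strand is given in the sources used here. Names, types and coordinates came from GENCODE M21 (GRCm38), by identifier without version, which gave 42462 of 43346 genes a symbol. Tmem5 was matched as Rxylt1 through the synonyms of the RefSeq table. Spike-ins held 1670852 reads in replicate 1 and 974277 in replicate 2, or 9.44% and 4.54% of TPM, and 182 reads on other rows in replicate 2 were left out.

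Replicate numbers came from the labels. No test between conditions was possible, so values were set against the SD over n = 2. Log ratios used TPM + 1, and ratios between libraries were taken for genes with at least 10 counts in both and centred on the median gene. Fixed-length levels used the reads over the effective length of the longest coding transcript with the deposited scaling. Deposited length minus effective length had a median of 99 bases. All 10 genes are named, in other lists the 4 highest detected in both libraries, and transcripts with at least 20% of the gene's TPM in a library. A few genes that this rule or the marker lists would name are not reported here. The genes, lists, tests and alternatives were chosen with earlier results of these data known. Alternatives were other scalings, units, pseudocounts, detection limits and filters, and leaving out each replicate. edgeR 4.0.16 in R 4.3.3 gave TMM factors from rounded expected counts. Tables were handled in pandas 2.3.3 and numpy 2.4.6 under Python 3.11.15, intervals came from scipy 1.17.1, and figures from matplotlib 3.10.9. The ratio calculation was tested on simulated data with counting error alone, so that test does not show how ratios vary in these libraries.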

Additional observations from a re-analysis of the deposited data

How the results depend on the processing

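No paired analysis was possible because both libraries belong to 1 group. Detection of 9 of the 10 genes in both libraries held under all 3 other limits tried, and no call changed sign. With depth-scaled counts and no length term, the alpha sum was 6.15 and the beta sum 6.09 times the gamma sum, 5 of 8 pairs exceeded the spread and Lama5 took 0.463% of the alpha chains. With a fixed length, chosen after the data were seen, these ratios were 6.21 and 8.10, and again 5 of 8 pairs exceeded the spread, against 3 as reported. Posterior mean TPM put Lama5 at 0.454% of the alpha chains, against 0.142% as reported, and Lamc1 at 98.5% of the gamma chains. With spike-in centring 5 of 9 genes passed 2-fold between the libraries, against 3 as reported. The share of all genes was not computed for that centring. Either library alone gave 300.1 to 534 TPM for the 10 genes, 42.4 to 60.1% for Lama2, 39.6 to 57.6% for Lama4, 81.0 to 88.2% for Lamb1 and 7.39 to 19.0% for Lamb2. The mean level moved by more than the spread for Lama2, Lama4, Lamb1, Lamc1 and Agrn at fixed length and for Lama5 with posterior mean TPM. The mean of Hspg2 fell from 44.3 to 16.8 TPM at fixed length, which lies within the spread only because its SD was 40.7. With n = 2 a library alone always lies within the spread, so those ranges say nothing of stability. With 13 pg of RNA and 2 libraries of 1 group, the spread rests on n = 2. The limit that a count of 0 allows covers counting error alone and does not bound a gene's level in the RNA. Itga7, for example, had 3099 reads in replicate 1 and 0 in replicate 2.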
